A study of Mus musculus with 6 samples.

Results

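Keg1, Nat8, Elovl3, Selenbp2, Moxd1, Nrep and Susd4 are grouped here as liver genes that depend on growth hormone reaching the liver in pulses. These 7 genes were chosen from a list made with values of the same 6 arrays in view, those of the hexane fraction among them, so their own differences are given as a description, with no p-value. Every probe set annotated to one of the 7 symbols was taken. Of the 7 genes, 6 were on the array by symbol, through 7 probe sets, and 5 of them, through 6 probe sets, were bright enough to be tested. The whole array held 12393 genes with 1 symbol each, of which 9209 were tested.

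The data are signal intensities of liver total RNA from Swiss-Webster mice, an outbred stock, on 6 Affymetrix expression arrays. There were 2 arrays from mice fed a control diet, 2 from mice whose diet held 1% of fraction 1 for 21 days and 2 from mice whose diet held 1% of fraction 2 for 21 days. Fraction 1 was the hexane fraction and fraction 2 the methanol fraction in a study of Boswellia serrata, the tree that gives Indian frankincense. The labels do not say how long the control mice ate their diet, or the sex and age of any mouse. The arrays hold no measure of growth hormone, so dependence on its pulses was not tested. Nothing in the labels says that the 2 arrays of a group came from separate animals, so the errors and p-values cover only the spread between these samples.

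As background, the pituitary of the male rodent releases growth hormone in regular pulses with low levels between them, and that of the female releases it more evenly. Each pulse binds the growth hormone receptor on the hepatocyte, activates the kinase JAK2 and sends the transcription factor STAT5B to the nucleus, where it binds DNA at sites that resemble TTCNNNGAA. Genes that need the pulses are mostly higher in male liver, and genes that the pulses hold down are higher in female liver.

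The promoters of the members are shown because STAT5 is the factor through which the pulses act. RefSeq promoter windows (GRCm38.p6, 250 bases before to 50 after the transcription start) were found for 5 of the 7 members, as 7 windows. Elovl3 had no entry and Nrep was not used. The letters TTCNNNGAA, which read the same on both strands, were present in 2 of these 7 windows (28.6%) and in 2726 of 32851 promoter windows of the same length (8.30%). They were in the windows of Keg1 and Moxd1, and in none of 14 windows of other male-biased liver genes. The windows of Nat8, Susd4 and Selenbp2 did not hold these letters. A match is a run of letters, and no binding was measured. The window of Keg1 held 2 matches and that of Moxd1 held 1, in capitals below. The Keg1 stretch is chr19:12695590-12695789, plus strand, bases 200 to 1 before the start, and the Moxd1 stretch is chr10:24223317-24223466, plus strand, bases 200 to 51 before the start.
Keg1: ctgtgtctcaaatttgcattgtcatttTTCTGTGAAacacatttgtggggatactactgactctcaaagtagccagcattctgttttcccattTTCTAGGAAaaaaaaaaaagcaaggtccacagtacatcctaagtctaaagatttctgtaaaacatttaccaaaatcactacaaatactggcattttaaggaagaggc
Moxd1: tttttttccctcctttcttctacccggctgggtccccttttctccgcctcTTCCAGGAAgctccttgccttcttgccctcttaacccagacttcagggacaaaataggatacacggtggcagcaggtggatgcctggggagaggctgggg

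Keg1, Nat8, Nrep and Elovl3 stood at 21.3% to 37.6% of their control level with fraction 1, and Keg1 was close to its control level with fraction 2. The other 3 of these genes lay between control and fraction 1 when fraction 2 was given. Susd4 was lowest with fraction 2, Moxd1 was too dim to test, and a probe set with the transcript of Selenbp2 was not lower with fraction 1. The genes are taken below by what they make, first the enzymes.

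Keg1 encodes a protein related to glycine N-acyltransferases, enzymes that join acyl groups to glycine, and its name comes from its expression in kidney. Its signal was 7690 and 8064 array units on the control diet, 3288 and 2635 with fraction 1, and 6838 and 7292 with fraction 2. Both fraction 1 arrays were below every other array, and both fraction 2 arrays were below both controls by a small margin. The mean was 7877 ± 264 (SD, n = 2) on the control diet, 2961 ± 461 with fraction 1 (37.6% of control) and 7065 ± 321 with fraction 2 (89.7% of control). On the scale used for all tests, log2 of signal plus 16, the difference from control was -1.41 ± 0.15 (SE) with fraction 1 and -0.16 ± 0.15 with fraction 2. The 95% interval of the fraction 2 difference ran from -0.50 to 0.19. Keg1 was the member for which the fractions stood furthest apart relative to the error, with fraction 1 below fraction 2 by a log2 difference of -1.26 ± 0.15.

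Nat8 encodes an acetyltransferase of the endoplasmic reticulum that completes mercapturic acids, the form in which many glutathione conjugates leave the body. Its signal was 1433 and 1746 on the control diet, 379 and 299 with fraction 1, and 1172 and 671 with fraction 2. The 3 groups did not overlap, but the fraction 2 arrays stood far apart from each other, with replicate b the lower. The mean was 1590 ± 221 (SD, n = 2) on the control diet, 339 ± 57.1 with fraction 1, 21.3% of control, and 921 ± 354 with fraction 2, 58.0% of control. The log2 difference from control was -2.18 ± 0.28 with fraction 1, the largest of the members, and -0.82 ± 0.28 with fraction 2. Without fraction 2 replicate b the latter was -0.43, and without replicate a it was -1.22.

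Elovl3 encodes an elongase of the endoplasmic reticulum that lengthens saturated and monounsaturated fatty acids into very long chains. Its signal was 670 and 693 on the control diet, 228 and 219 with fraction 1, and 476 and 268 with fraction 2. The arrays of the control diet and of fraction 1 agreed closely within each group, and those of fraction 2 did not. The means were 682 ± 16.5 (SD, n = 2), 223 ± 6.51 and 372 ± 147, so that fraction 1 was at 32.8% and fraction 2 at 54.6% of control. The log2 difference from control was -1.54 ± 0.27 with fraction 1 and -0.90 ± 0.27 with fraction 2. As for Nat8, replicate b of fraction 2 was the lower: the fraction 2 difference was -0.50 without it and -1.29 without replicate a. The difference between the fractions, -0.64 ± 0.27, moved to -0.25 without fraction 2 replicate a and to -1.04 without replicate b.

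Moxd1 encodes a copper-dependent monooxygenase related to dopamine beta-hydroxylase. Its signal was 6.1 and 7.8 on the control diet, 9.9 and 10.3 with fraction 1, and 8.0 and 9.4 with fraction 2. These values were under the 40th percentile of every array, so no test was made. The 6 values show a probe set near the dim end of the array, with no order that can be read from them.

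Nrep, also called P311, encodes a small protein first described in neurons and since studied in wound repair and in liver lipid metabolism. It had 2 probe sets, and the brighter one stands for the gene. The brighter probe set gave 970 and 1060 on the control diet, 264 and 198 with fraction 1, and 490 and 813 with fraction 2. The mean was 1015 ± 63.9 (SD, n = 2) on the control diet, 230.5 ± 46.7 with fraction 1 (22.7% of control) and 652 ± 228 with fraction 2 (64.2% of control). Here replicate a of fraction 2 was the lower, the reverse of Nat8 and Elovl3. The log2 difference from control was -2.08 ± 0.27 with fraction 1 and -0.67 ± 0.27 with fraction 2, and the latter was -0.31 without replicate a and -1.02 without replicate b.

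The dimmer Nrep probe set gave 721 and 753 on the control diet, 280 and 220 with fraction 1, and 399 and 527 with fraction 2. It placed the groups in the same order, without overlap. Its log2 difference from control was smaller with fraction 1, -1.51 ± 0.22, and about the same with fraction 2, -0.67 ± 0.22. The suffix of the brighter probe set marks probes that can bind more than one transcript, which leaves its size less certain than its order.

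Susd4 encodes a membrane protein with sushi domains, the repeats found in regulators of complement. Its signal was 121 and 142 on the control diet, 97.4 and 99.9 with fraction 1, and 52.8 and 80.9 with fraction 2. Only the control arrays reached the 40th percentile of their array, so the gene entered the test through the group in which it was highest. The means were 131 ± 14.8 (SD, n = 2), 98.7 ± 1.77 and 66.9 ± 19.9, which put fraction 1 at 75.2% and fraction 2 at 51.0% of control. The log2 difference from control was -0.36 ± 0.37 with fraction 1 and -0.85 ± 0.37 with fraction 2. Among the tested members, Susd4 was the one with a higher value in fraction 1 than in fraction 2, by 0.49 ± 0.37. The 95% interval ran from -0.35 to 1.33. That difference was 0.24 without fraction 2 replicate a and 0.74 without replicate b.

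**Figure D1:**
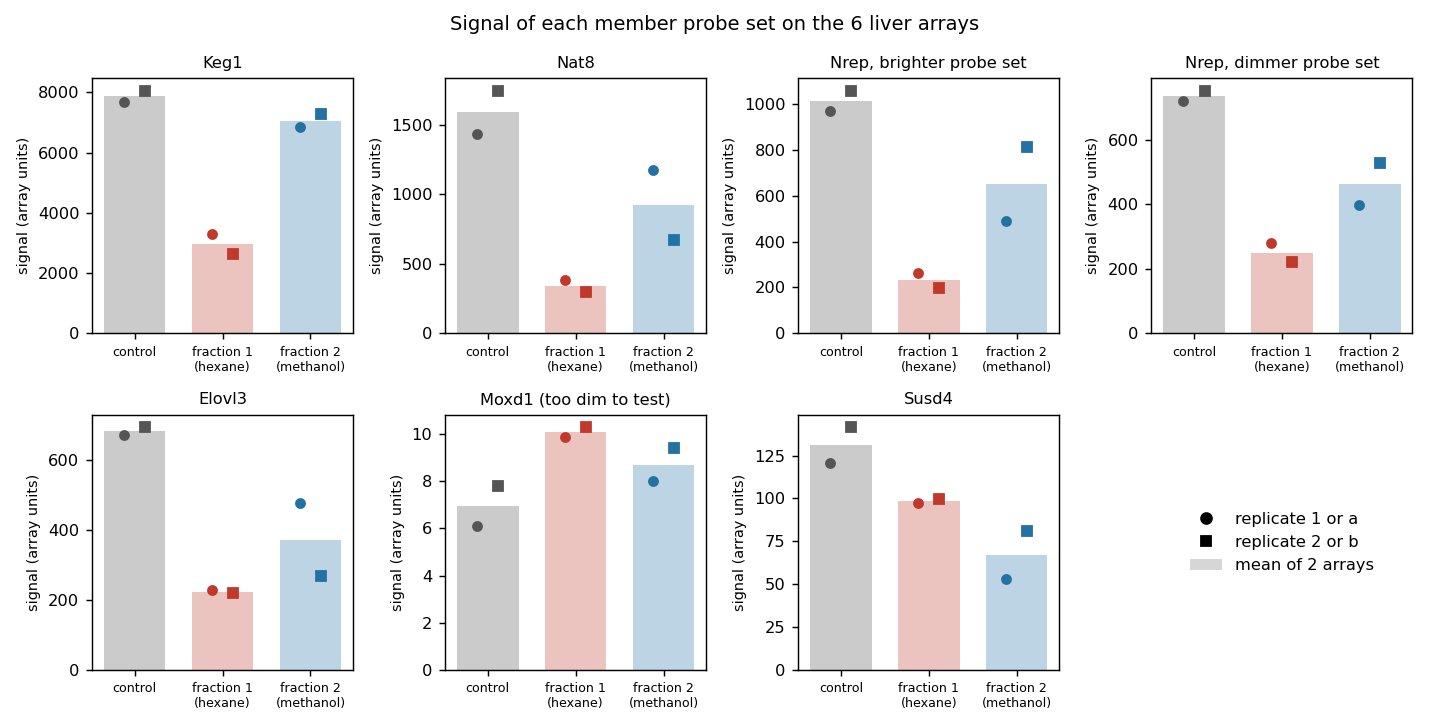
Signal of each member probe set in array units, with the 3 groups on the horizontal axis. Points are single arrays and bars the means of 2 arrays; Keg1, Nat8, Elovl3 and both Nrep probe sets have their lowest values with fraction 1 (hexane), Susd4 has its lowest with fraction 2 (methanol), and Moxd1 stays under 11 units on all 6 arrays.

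Selenbp2 encodes a liver protein that binds selenium and acetaminophen, and it was not on the array by symbol. One of the probe sets annotated to its close relative Selenbp1 carries the accession of the Selenbp2 transcript. That probe set gave 8183 and 7734 on the control diet, 9024 and 9092 with fraction 1, and 7618 and 7390 with fraction 2. Its log2 difference from control was 0.19 ± 0.12 with fraction 1 (limma adjusted p = 0.584) and -0.08 ± 0.12 with fraction 2 (limma adjusted p = 0.885). The other Selenbp1 probe set gave 0.35 ± 0.12 (limma adjusted p = 0.268) and -0.09 ± 0.12 (limma adjusted p = 0.878). Neither probe set was lower with fraction 1, and signal from the 2 genes cannot be told apart here.

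The promoters of this pair are shown because they bear on how alike the genes are. The starts of Selenbp2 and Selenbp1 lie 240 kb apart on chromosome 3. Of the 150 bases before the Selenbp2 start (chr3:94693423-94693572, plus strand, GRCm38.p6), 143 (95.3%) were identical in the stretch of the Selenbp1 window aligned with it (chr3:94932923-94933072, plus strand, bases 160 to 11 before its start). Capitals mark the 7 bases that differ.
Selenbp2: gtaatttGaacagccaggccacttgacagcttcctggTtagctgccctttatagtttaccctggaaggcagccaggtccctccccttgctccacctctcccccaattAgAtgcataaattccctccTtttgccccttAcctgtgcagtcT
Selenbp1: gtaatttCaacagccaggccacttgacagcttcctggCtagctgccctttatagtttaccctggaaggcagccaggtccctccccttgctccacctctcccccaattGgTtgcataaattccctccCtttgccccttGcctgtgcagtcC

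Set side by side, the comparison of fraction 1 with control placed 5 of 5 tested members below 0, beside 4943 of all 9209 tested genes. Their median log2 difference was -1.54, against -0.03 for all tested genes. Susd4 is among the 5 and entered the test only through its control arrays, which favours a place below control. Keg1, Nat8, Nrep and Elovl3 were past the threshold of adjusted p under 0.05 (limma, Benjamini-Hochberg over 14755 probe sets), and Susd4 was not. Over all probe sets 0.346% were past it and lower, and 0.366% past it and higher. Ranked from the lowest difference among the 14755 probe sets, Nat8 was at place 12, Nrep at 15, Elovl3 at 65, Keg1 at 94 and Susd4 at 2601. The groups did not overlap for any of the 5, with fraction 1 lower. This was so for 22.1% of all probe sets, and because the members were chosen with this comparison in view, nothing further is read from the counts.

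With fraction 2, the 5 tested members had a median of -0.82 against -0.05 for all genes, and 0 of 5 were past the threshold. Susd4 is among the 5 and entered the test only through its control arrays, which favours a place below control. Over all probe sets 0.0136% were past it and lower, and 0.0949% past it and higher. In this comparison 1026 of 14755 probe sets had an unadjusted limma p under 0.05. The fraction 2 arrays were below both control arrays for all 5 members, as for 20.4% of all probe sets. Elovl3, Susd4, Nat8 and Nrep lay between -0.90 and -0.67, within 1 SE of each other, and Keg1 was nearest to 0. Both comparisons use the same 2 control arrays, so a high or low control moves both.

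Between the fractions, Nrep (-1.41 ± 0.27), Nat8 (-1.36 ± 0.28), Keg1 (-1.26 ± 0.15) and Elovl3 (-0.64 ± 0.27) were lower with fraction 1. None of the 5 was past the threshold with no block in the fit, and 0.00678% of all probe sets were past it and lower and 0.00678% past it and higher. In this comparison 1187 of 14755 probe sets had an unadjusted limma p under 0.05. Fraction 1 lay wholly below fraction 2 for 4 of 5 members, beside 21.4% of all probe sets. Each of these differences was larger than its standard error, but none stood out after adjustment over the array. The members were chosen with the fraction 1 values in view, which favours a place below fraction 2. Nothing further is read from these sizes or counts.

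**Figure D2:**
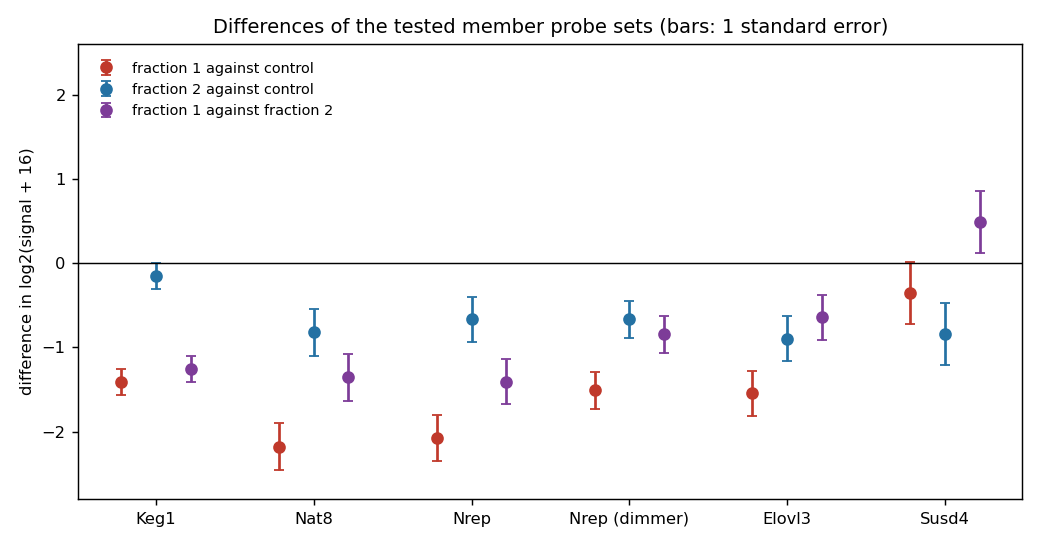
Difference in log2(signal + 16) of the 6 tested member probe sets in each of the 3 comparisons, with bars of 1 standard error. The fraction 1 values of Keg1, Nat8, Nrep and Elovl3 lie between -2.18 and -1.41, the fraction 2 values of all 5 genes between -0.90 and -0.16, and Susd4 is the gene above 0 when fraction 1 is set against fraction 2.

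The arrays were scanned in 2 batches, and batch 2 was made up of control replicate 1 together with replicate a of fraction 2. Batch 1 thus had control replicate 2 as its only control and replicate b as its only fraction 2 array. That control had the highest ratio of 3' to 5' actin signal, as given below. Within batch 1 the difference of fraction 1 from control was -1.45 for Keg1, -2.32 for Nat8, -2.14 for Nrep, -1.57 for Elovl3 and -0.46 for Susd4, and that of fraction 2 was -0.14, -1.36, -0.38, -1.32 and -0.70 in the same order. Within batch 1 the fractions differed by -1.30 for Keg1, -0.96 for Nat8, -1.76 for Nrep, -0.25 for Elovl3 and 0.24 for Susd4. Batch 2 held no fraction 1 array, and its control and fraction 2 arrays differed by -0.17 for Keg1, -0.29 for Nat8, -0.96 for Nrep, -0.48 for Elovl3 and -0.99 for Susd4. These 2 arrays also deviated together from their group means, with a correlation of 0.296 across probe sets. With scan batch as a block the fraction 1 differences were -1.46, -2.05, -2.29, -1.36 and -0.53 in the same order, and Elovl3 was no longer past the threshold.

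The arrays came from 3 chip lots, each with 2 groups: control replicate 2 was of lot 1 with replicate a of fraction 1, control replicate 1 of lot 2 with replicate a of fraction 2, and replicate b of both fractions was of lot 3. Lot 2 was thus the same pair of arrays as scan batch 2. With chip lot as a block, Elovl3 (-1.28 ± 0.26) was not past the threshold for fraction 1 against control, while Keg1, Nat8 and Nrep were. Between the fractions Keg1 (-1.35 ± 0.14) was past it, where 16 probe sets in all passed instead of 2. The number of calls over all probe sets changes with the setting, so these calls are not read as a result about the members. Within lot 1, fraction 1 differed from control by -1.29 for Keg1, -2.16 for Nat8, -1.95 for Nrep, -1.54 for Elovl3 and -0.47 for Susd4. Within lot 3, fraction 1 differed from fraction 2 by -1.46, -1.13, -1.96, -0.28 and 0.26 in the same order.

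Actin probes near the 3' end gave 3.87 times the signal of those near the 5' end on control replicate 2, and 2.13 to 2.64 times on the other arrays, a ratio that rises as RNA degrades. Without control replicate 2 the fraction 1 differences were -1.38 for Keg1, -2.04 for Nat8, -2.01 for Nrep, -1.52 for Elovl3 and -0.25 for Susd4. Without fraction 1 replicate a they were -1.57, -2.34, -2.27, -1.57 and -0.34 in the same order. Without fraction 1 replicate b they were -1.26, -2.01, -1.88, -1.52 and -0.37. Each of these fits leaves a group with a lone array, so only sizes are given here.

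**Figure D3:**
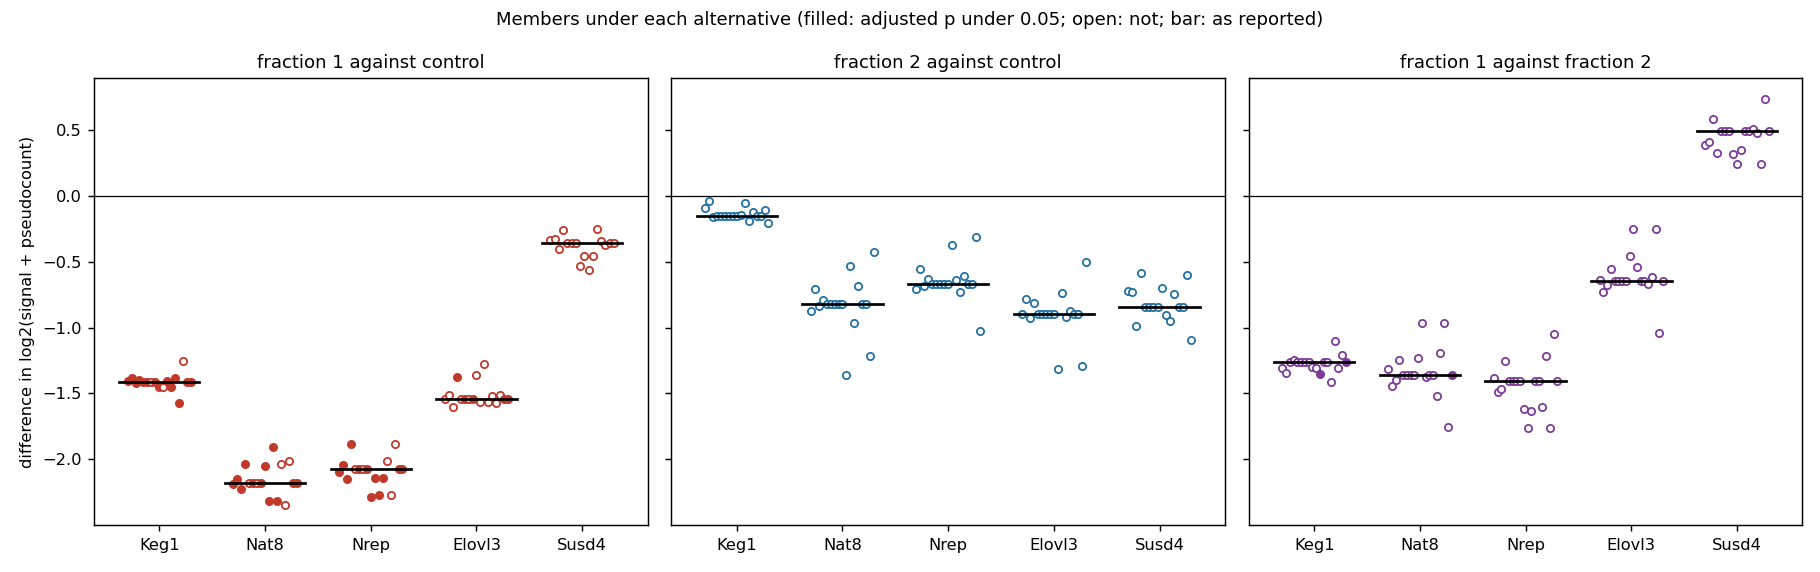
Difference in log2(signal + pseudocount) of the 5 tested members in each comparison under every alternative, 1 point per alternative spread sideways for sight, with a bar at the value reported. Points past the threshold are filled; the fraction 1 values of Nat8 run from -2.34 to -1.91 and its fraction 2 values from -1.36 to -0.43, and no value shown changes sign.

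Other genes of the pathway were taken from a list of 22 for the growth hormone receptor, its signalling and its feedback, of which 19 were tested. With fraction 1, 1 gene fell, 0 rose and 18 did not pass, and the median was -0.11. Over all 9209 tested genes 37 fell and 31 rose, with a median of -0.03. With fraction 2, 0 passed and the median was -0.21, against -0.05 for all tested genes. The listed gene that fell was Ghr, the receptor itself. Its signal was 8096 and 7200 on the control diet, 3751 and 2957 with fraction 1, and 5599 and 5741 with fraction 2. Its log2 difference was -1.19 ± 0.16 with fraction 1 (limma adjusted p = 0.0238) and -0.43 ± 0.16 with fraction 2 (limma adjusted p = 0.662). Stat5b, the factor that the receptor activates, differed by -0.21 with fraction 1 (limma adjusted p = 0.747). Igf1, the circulating growth factor made under growth hormone, differed by -0.49 (limma adjusted p = 0.440), and Igfals, which carries it in blood, by -0.99 (limma adjusted p = 0.142). The feedback inhibitors Cish and Socs2 differed by -0.57 (limma adjusted p = 0.461) and 0.25 (limma adjusted p = 0.876). Bcl6, a repressor that competes at STAT5 sites, differed by -0.69 (limma adjusted p = 0.549). Control replicates 1 and 2 stood far apart for Igf1 (12208 and 21420), Cish (857 and 471), Socs2 (595 and 206) and Bcl6 (327 and 929). The sizes for these genes thus depend on which control array is used. Socs3, another feedback inhibitor, was at 197 and 213 on the control diet and 106 and 37 with fraction 2 (limma adjusted p = 0.512). Replicate b of fraction 2 was under the 40th percentile of its array, so no size is given.

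Of 21 other male-biased genes that depend on growth hormone and STAT5B, 16 were tested. With fraction 1, 8 fell, 0 rose and 8 did not pass, with a median of -1.53. Over all 9209 tested genes, these 8 among them, 37 fell and 31 rose with fraction 1. With fraction 2, 2 of the list fell, 0 rose and the median was -0.54, beside 2 lower and 9 higher over all tested genes. This list was written with earlier results of these arrays known, so its counts and p-values are not independent evidence of its direction. Hsd3b5, a steroid dehydrogenase of male mouse liver, was at 4685 and 5754 on the control diet, 8.2 and 8.3 with fraction 1, and 182 and 74.4 with fraction 2. It fell with fraction 1 (limma adjusted p = 6.58e-05) and with fraction 2 (limma adjusted p = 0.00119). Both fraction 1 signals were far under the 40th percentile of their arrays, where the size of a log2 difference depends on the pseudocount, so none is given. Serpina12, the secreted inhibitor vaspin, fell with fraction 1, by a log2 difference of -3.00 ± 0.22 (limma adjusted p = 0.000952), and with fraction 2, by -1.75 ± 0.22 (limma adjusted p = 0.0385). Slco1a1, an organic anion uptake transporter, fell with fraction 1, by a log2 difference of -3.67 (limma adjusted p = 0.0202), and C8b, a subunit of the complement attack complex, by -1.51 (limma adjusted p = 0.0188). The count that fell with fraction 1 was 2 without control replicate 2, 3 without fraction 1 replicate b and 5 without either fraction 2 array. The count that fell with fraction 2 was 1 whichever of the 6 arrays was left out, and 1 with chip lot as a block, where the median was -0.32. None of the 16 passed between the fractions, where the median was -0.76; without fraction 1 replicate a the count was 3, and without replicate b the median was -0.39. With chip lot as a block 1 passed between the fractions.

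Of 21 female-biased genes that the pulses hold down, 11 were tested and 0 passed in any comparison. With fraction 1, 8 of 11 were above 0, with a median of 0.50, beside 4266 of all 9209 tested genes. With fraction 2, 7 of 11 were below 0, with a median of -0.29, beside 5240 of all 9209. With only 11 genes, no direction is read from these counts. Sult1e1, the estrogen sulfotransferase, was at 11.6 and 16 on the control diet, 179 and 426 with fraction 1, and 4.1 and 7.6 with fraction 2 (limma adjusted p = 0.113 for fraction 1 against control). Its control signals were under the 40th percentile of their arrays, so no size is given. Cux2, a repressor found in female liver, was at 148 and 7.7 on the control diet, 304 and 297 with fraction 1, and 56.3 and 15.7 with fraction 2, so that 1 control array stood well above the other (limma adjusted p = 0.288). Cyp2b9, a female-biased cytochrome P450, differed by 0.44 with fraction 1 (limma adjusted p = 0.663).

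**Figure D4:**
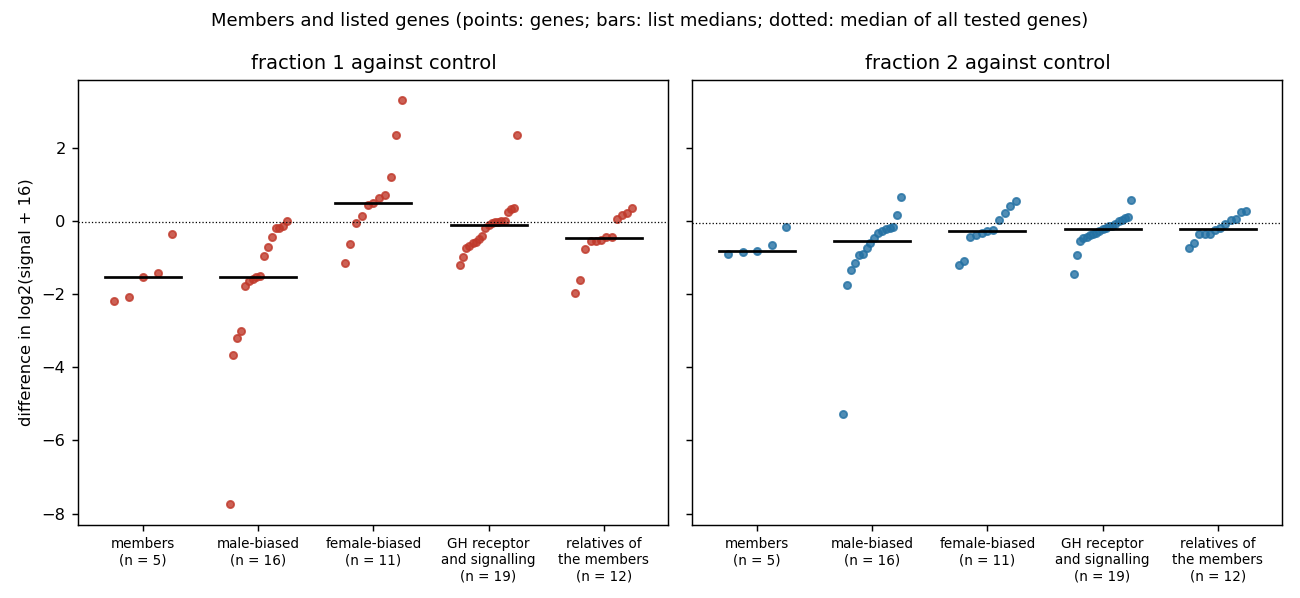
Difference in log2(signal + 16) of the 5 members beside the tested genes of 4 lists, for fraction 1 against control and fraction 2 against control; points are genes, bars the list medians and the dotted line the median of all tested genes. With fraction 1 the medians are -1.54 for the members, -1.53 for the male-biased, 0.50 for the female-biased and -0.11 for the signalling genes; the height of the lowest point, Hsd3b5, and of the highest, Sult1e1, depends on the pseudocount.

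Of 29 symbols listed for relatives of the members, not all of them separate genes, 15 were on the array and 12 were tested. With fraction 1, 1 fell, 0 rose and 11 did not pass, with a median of -0.48, beside 37 lower and 31 higher of all 9209 tested genes. The relative that fell was Nat8f1, which lies 78.8 kb from Nat8 in a cluster of related acetyltransferases on chromosome 6. It was at 5775 and 7512 on the control diet, 2335 and 1985 with fraction 1, and 3549 and 4411 with fraction 2, a log2 difference of -1.61 ± 0.19 with fraction 1 (limma adjusted p = 0.0145) and -0.73 with fraction 2 (limma adjusted p = 0.492). Nat8f5, 11.3 kb from Nat8, was at 244 and 208 on the control diet and 92.8 and 18.5 with fraction 1 (limma adjusted p = 0.145). Both fraction 1 signals were under the 40th percentile of their arrays, so no size is given. Whether probes of this family bind each other's transcripts was not tested. Glyat, the glycine N-acyltransferase 62.5 kb from Keg1 on chromosome 19, differed by -0.55 with fraction 1 (limma adjusted p = 0.163). Elovl5, an elongase of polyunsaturated fatty acids, differed by -0.52 (limma adjusted p = 0.171).

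The genes whose pattern was most like that of each member were sought among 9047 tested genes, by the mean absolute difference over the 6 arrays between log2 deviations from each gene's own mean. For Keg1 they were Elmo1 (0.098) and Tsc22d1 (0.105), and for Nat8 they were Oas1a (0.185) and Kcnd3 (0.190). Nrep was nearest to Cyp2d13 (0.160) and to Nat8f1 (0.223), the relative of Nat8 named above. Elovl3 was nearest to Nsg2 (0.141) and to Ugt2b38 (0.183), a glucuronosyltransferase of the male-biased list. Susd4 was nearest to Pip5k1a (0.073) and Gzmk (0.074). Only 6 arrays enter each value, and many genes were searched. With fraction 1, Elmo1, Oas1a, Kcnd3, Nsg2 and Ugt2b38 were under the 40th percentile of both arrays. Their likeness values depend on the pseudocount for that reason.

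The labelled tissue was checked against marker genes. Of 8 hepatocyte markers, 6 were on the array, albumin among them. Their summed signals were 105075 to 117526 on the control diet, 92885 to 103368 with fraction 1 and 82630 to 87823 with fraction 2. With fraction 1, Tat (0.41) and Cps1 (0.10) were above control in log2 difference, and the other 4 were below. With fraction 2 all 6 were below control. Sums of 7 stellate cell markers were 7626 to 8706, 4571 to 5785 and 6196 to 7149 in the same order of groups, and those of 6 endothelial markers 4978 to 6512, 3971 to 4200 and 4730 to 5159. The stellate and endothelial sums were lowest with fraction 1, as Keg1, Nat8, Nrep and Elovl3 were. Not every marker followed its sum. With fraction 1, Col1a1 (0.14), Cdh5 (0.12) and Lyve1 (0.02) were above control in log2 difference, and the other tested markers of these 2 lists were below. The part of any of these cell types in the members' differences was not tested. Sums of the 8 of 9 Kupffer cell markers on the array were 7755 to 9023, 6911 to 7707 and 7564 to 8050. Keg1 and Nat8 are also kidney genes; sums of 8 kidney markers were 629 to 1461 on the control diet, 1031 to 1044 with fraction 1 and 702 to 836 with fraction 2, and Umod, Slc12a3 and Lrp2 were too dim to test. Sums over 4 of 5 bile duct markers and 4 of 6 adipocyte markers were 184 to 357 and 178 to 230 units over the 6 arrays. No marker was listed at 0, and none passed the test in any comparison. In liver RNA as a whole, fewer cells of a type and less RNA per cell cannot be told apart.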

How the data were processed

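Liver RNA was measured on 6 arrays in 3 groups of 2. The deposited values are signal intensities, 1 per probe set and array, on a linear scale. The software and summary method behind them are not given here; the authors' values were used as deposited, since the trimmed mean of the arrays differed by 0.0811%. The 64 control features among 22690 were dropped. Testing required a value at or above the array's 40th percentile on at least 2 of 6 arrays, met by 14755. Symbols came from the platform annotation, and the tested probe set with 1 symbol and the highest mean stood for a gene.

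The values, as log2(signal + 16), were analysed with limma 3.58.1 under R 4.3.3. One lmFit model took in all 6 arrays, and eBayes used a variance trend, which gave 3 residual degrees of freedom and 5.43 prior ones. The two-sided p-values were adjusted by Benjamini-Hochberg over all tested probe sets, at a threshold of 0.05. The median standard error was 0.25, and precision is limited by the number of arrays. The procedure was run on simulated data, with the spreads shuffled among probe sets. The check made on them covered only changes larger than those of any member. It does not vouch for changes of the members' size. Fold changes from log2 of signal plus 16 understate changes of dim probe sets.

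The members and lists were chosen with earlier results of these data known. Named genes were all members, up to 4 genes of each list with the smallest p, Ghr, Stat5b, Socs2, Igf1, Bcl6, Hsd3b5 and Cyp2b9, up to 4 relatives besides Selenbp1, and the 2 genes most like each member. Relatives were to be chosen by protein identity as well, which was not computed. Promoter windows came from RefSeq and were searched on both strands and aligned with Biopython 1.88. Alternatives changed 1 choice at a time: normalization, pseudocount, filter, variance trend, groups fitted, blocks and arrays left out. The replicate block was the exception, as it also left out the control arrays. Python 3.11.15 with matplotlib 3.10.9 drew the figures.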

Additional observations from a re-analysis of the deposited data

How the results depend on the processing

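None of the 5 tested members changed sign under the alternatives run, which left out Susd4 at the 60th-percentile filter; Moxd1 and Selenbp2 had none. Of 5 tested members, 4 were past the threshold for fraction 1 against control; this count was 1 with no filter, 0 with no variance trend, 2 in scan batch 1 alone and 0 to 4 with 1 array left out. It was 0 under every alternative for fraction 2. Between the fractions it was 1 (Keg1) with chip lot as a block and 2 (Keg1 and Nat8) with the replicate block. Replicate letters a and b were not taken as pairs: deviations of fraction 1a and fraction 2a from their group means correlated at 0.03 over probe sets. The replicate block was fitted to the fraction arrays alone, without the controls, and 75 probe sets were past the threshold instead of 2. How much of that rise came from the block and how much from leaving out the controls was not separated. Of 17 alternatives for fraction 1 against control, Keg1 was past the threshold in 14, Nat8 and Nrep in 12 each and Elovl3 in 5.

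Over all probe sets, 105 were past the threshold for fraction 1 against control, and 48 with median centring, 27 with no filter, 12 with no variance trend, 39 with the 2 groups alone, 66 in batch 1 alone and 14 to 149 with 1 array left out. For fraction 2 against control there were 16, and 10 with no filter, 2 with no variance trend, 9 with the 2 groups alone, 4 in batch 1 alone, 10 with chip lot as a block and 3 to 28 with 1 array left out. Between the fractions there were 2, and 0 with quantile normalization, median centring, a pseudocount of 1, no variance trend, no filter, batch 1 alone or scan batch as a block, 16 with chip lot as a block and 0 to 11 with 1 array left out. Median centring moved the median of all probe sets for fraction 2 against control from -0.04 to 0.07. Centring makes the medians of all probe sets, tested or not, equal across arrays, so the shift follows from those medians. They were 143.4 and 167.2 units on the control arrays and 139.3 and 144.3 with fraction 2. Why the array medians differed was not tested. Leaving out 1 array gave its group a lone array, taken to vary as the other groups do.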
